A study of Mus musculus with 48 samples.

Results

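The question was whether mouse soft tissue sarcomas of different origin answered the same combined treatment differently. The measure was the difference of responses: the log2 fold change between 20 Gy with anti-PD-1 and 0 Gy with isotype antibody in primary tumours, minus the same fold change in allografts. A positive value means a more positive response in primary tumours. Tumours were chosen by their labelled group alone, which gave 24 of the 48 tumours in the series, and 19327 of 36854 genes were tested.

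Both kinds of tumour grew in the gastrocnemius muscle of the 129/SvJae strain. Primary tumours came from p53FL/FL mice aged 6 to 10 weeks, in which an adenovirus carrying Cre was injected into the muscle to delete p53 locally, together with 300 µg of MCA (3-methylcholanthrene), a chemical carcinogen. Allografts came from 50000 cells of the line 402230 in matrigel, placed in the muscle of syngeneic mice, so every allograft descends from 1 line. At a volume of about 150 mm3 a tumour received 200 µg of the murine anti-PD-1 antibody muDX400 or of an isotype control, followed by 0 or 20 Gy to the hind limb, and it was harvested 3 days later. The control groups had 0 Gy with isotype (4 allografts and 8 primary tumours) and the combined groups had 20 Gy with anti-PD-1 (4 allografts and 8 primary tumours). No group isolates the dose from the antibody here, and the kinds also differ in that only the hosts of primary tumours received virus and carcinogen. The age of the allograft hosts is not stated in the labels.

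Anti-PD-1 blocks a receptor that restrains activated T cells. Ionising radiation breaks DNA, halts the cell cycle, induces interferons and chemokines, and draws myeloid cells such as monocytes and neutrophils into the tumour. A tumour transplanted from a line meets the host immune system at once, whereas a tumour that arises in place develops alongside it. In bulk RNA, fewer cells of a type and less RNA per cell cannot be told apart.

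Library totals of the 24 tumours ran from 34.7 to 51.4 M counted reads. Vim, which encodes the mesenchymal filament vimentin, was abundant in all of them: 2389 to 3129 CPM (reads scaled to the library total) in control allografts, 1482 to 2555 in combined allografts, 2940.1 to 5938 in control primaries and 1737 to 4309 in combined primaries. The skeletal muscle gene Acta1 ran from 2.19 to 19389.6 CPM across the 24 tumours. Trp53 was counted in every tumour, at 20.2 to 51.9 CPM. Gene-level counts do not isolate the deleted exons, so this does not check the deletion. Combined allograft replicate 3 held liver transcripts, with Alb (serum albumin) at 303 CPM against 0.459 to 1.22 in the other combined allografts. Liver from the same animals was also collected, per the labels. A list of 25 liver genes, drawn up after this was seen, summed to 724 CPM in that tumour and to 3.57 to 5.85 in the others of its group. The other 3 groups also held liver transcripts, at lower sums: 0.858 to 109.9 CPM in control primaries (84.2 and 41.5 in the next highest), 0.978 to 60.3 in control allografts and 1.42 to 41.6 in combined primaries. Of the list, 19 genes are among the 663 with an unadjusted p below 0.05 on the lower side of the difference. With combined allograft replicate 3 left out, none of the 25 was below 0.05 and their median difference went from -4.69 to 0.42. Female and male hosts were mixed: Xist passed 10 CPM in 1 of 4 and 3 of 4 allografts (control and combined) and in 5 of 8 and 3 of 8 primaries. The first digit of the animal identifier was 5 in 7 of the 8 allografts and in 0 of the 16 primaries, so among these 24 tumours it nearly coincides with the tumour kind. The other 24 tumours separate them in part, and a fit with the digit as a covariate was run.

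Across all genes the edgeR quasi-likelihood test with Benjamini-Hochberg adjustment called 0 genes (0%) for the difference of responses, with a smallest adjusted p of 0.25. An unadjusted p below 0.05 was reached by 1239 genes (6.41%), of which 576 (2.98%) were higher and 663 (3.43%) lower in primary tumours. DESeq2 called 4 genes (0.0207%), Abi1, Skint3 and Nr4a1 among them. Without combined allograft replicate 3, the number with an unadjusted p below 0.05 was 993, and without combined allograft replicate 4 edgeR called 1 gene, Nr4a1. No gene was called by edgeR or voom under 7 other settings, covariates for Xist, for the identifier digit and for muscle among them, with a smallest adjusted p of 0.148 to 1.0. The median standard error of a difference was 0.44 on the log2 scale.

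The responses within each kind were far larger in number. In primary tumours the combined treatment changed 3636 genes (18.8%), 2198 upward (11.4%) and 1438 downward (7.44%), by the same test. In allografts, with 4 tumours a group instead of 8, it changed 851 genes (4.4%), 797 upward (4.12%) and 54 downward (0.279%). Primaries were fitted in the same direction for 830 of the 851 genes called in allografts (97.5%), and allografts for 3252 of the 3636 called in primaries (89.4%), against 70.1% of all genes. All 654 genes called in both kinds moved the same way, with a median size of 1.19 in primaries and 1.57 in allografts. The difference of responses reached an unadjusted p below 0.05 for 26 of these 654 genes (3.98%), for 14.2% of the 2982 genes called only in primaries and for 62.9% of the 197 called only in allografts. Those last shares follow in part from the calls themselves, which use the same tumours.

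**Figure D1:**
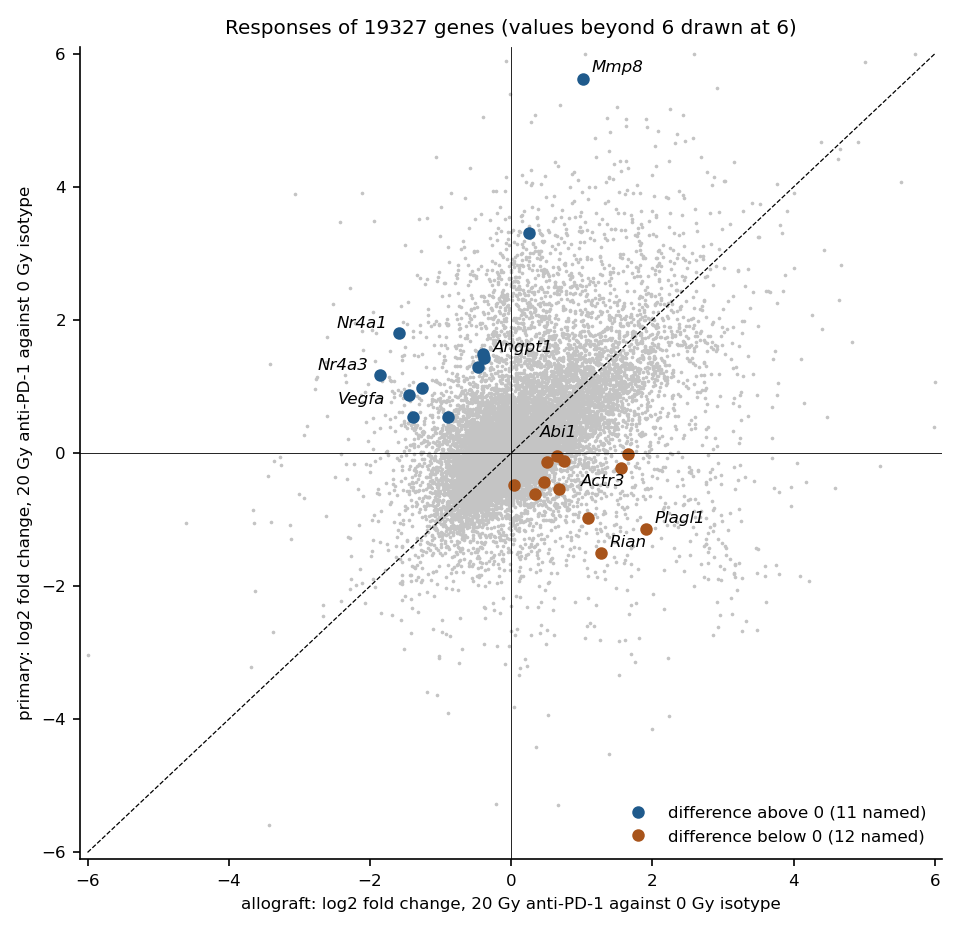
Response to 20 Gy with anti-PD-1 in allografts (x axis, log2 fold change) against primary tumours (y axis, log2 fold change) for 19327 genes, with 23 of the 24 genes of smallest p marked and 5 genes beyond the axes drawn at the edge. Points near the diagonal answered alike. The marked genes lie off it, most of them with fitted responses of opposite sign.

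The plot of the responses in both kinds shows a broad cloud along the diagonal (Pearson r = 0.42 across genes, which are not independent replicates) with named genes on either side. A measure from other tumours was set beside each difference. It uses the 24 tumours outside this comparison and the same dose contrast with the antibody exchanged: (20 Gy isotype minus 0 Gy anti-PD-1) in primaries minus the same in allografts. It shares no tumour with the main difference, yet it is not the same treatment. It is called the second difference below. edgeR called 0 genes for it, with 943 at an unadjusted p below 0.05 (4.88%), and DESeq2 called 12. Across all genes 56.0% had the same sign in both differences, and among the 1239 genes it was 889 (71.8%). Of 155 genes with an unadjusted p below 0.05 in both, 150 had the same sign.

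The 12 genes of smallest p in each direction, among genes of at least 5 CPM in some group, are described first. The 12 on the higher side included Nr4a1, Ipmk, Kif21a, Rap1gap, Angpt1, Nr4a3, Pak3, Mmp8, Rn7sk, F5 and Vegfa. The 12 on the lower side were Abi1, Rian, Pea15a, Actr3, Aph1b, Evi2a, St3gal4, Nadk, Exoc5, Ltc4s, Fam49a and Plagl1. Their unadjusted p ran from 1.3e-05 to 0.00153 and their adjusted p (edgeR, Benjamini-Hochberg) from 0.25 to 0.572. In 22 of the 24 the fitted responses of the 2 kinds had opposite signs, the exceptions being Mmp8 and F5, which were fitted upward in both. Choosing genes by the difference between these responses favours opposite signs. Over all genes, 70.1% were fitted with the same sign in both kinds. The combined treatment changed 13 of the 24 in primary tumours and 5 in allografts. All 12 higher genes were lower in control primaries than in control allografts, and all 12 lower genes were higher there. The control levels enter the difference with the opposite sign, so choosing genes by it favours such gaps: the 2 had opposite signs in 64.9% of all 19327 genes and in 91.4% of the 1239 with an unadjusted p below 0.05. The second difference kept the sign of 20 of the 24, and 8 had an unadjusted p below 0.05.

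The orphan nuclear receptors Nr4a1, Nr4a2 and Nr4a3 encode transcription factors that are induced within minutes by growth factor, stress and antigen receptor signals and that need no known hormone. All 3 were high in control allografts and low in control primaries. Nr4a1 (ENSMUSG00000023034) stood at 160.4, 313, 142.8 and 75.9 CPM in control allografts, in order of replicate, and at 29.4, 15.8, 35.2 and 149.6 in combined allografts. In primaries the lowest, median and highest values were 10.4, 15.8 and 38.9 CPM in controls and 20.0, 46.6 and 235 after treatment. Every control allograft lay above every control primary. Of the combined allografts 3 of 4 lay below all controls, with replicate 4 inside the control range, while the primary groups overlapped and shifted upward. The edgeR difference was 3.40 ± 0.78 (SE; p 7.59e-05, adjusted p 0.384), and the DESeq2 adjusted p was 0.023. Nr4a1 rose by 1.81 ± 0.45 in primaries (adjusted p 0.00377), and its value in allografts was -1.59 ± 0.63 (adjusted p 0.161). The gap between kinds was -3.14 at 0 Gy (adjusted p 9.08e-05) and 0.26 after treatment (adjusted p 0.805). Without combined allograft replicate 4 the edgeR difference was 4.50 with an adjusted p of 0.0307, and without any other tumour of that group it was 3.07 to 3.20. In the second difference Nr4a1 was at 1.79 ± 0.76 (unadjusted p 0.0228), from -0.36 in primaries and -2.15 in allografts. The allograft value thus had the same sign in both sets of tumours and the primary value did not.

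Nr4a3 gave 33.6 to 55.1 CPM in the 4 control allografts and 3.69, 5.05, 8.52 and 29.9 in the combined allografts. In primaries its median was 3.35 CPM in controls (1.27 to 20.6) and 10.8 after treatment (2.93 to 31.2). All 4 combined allografts lay below all 4 controls, replicate 4 again being the highest. The difference was 3.03 ± 0.81, with 1.18 in primaries (adjusted p 0.065) and -1.86 in allografts (adjusted p 0.104), neither of which passed the test. Nr4a2 stood at 114.6, 148, 103.03 and 81.4 CPM in control allografts and at 20.9, 14.0, 31.3 and 83.8 in combined ones. Its primary medians were 15.7 in controls and 23.4 after treatment, and its difference was 2.44 ± 0.84 (unadjusted p 0.00551). In the second difference Nr4a3 was at 1.66 (unadjusted p 0.0413) and Nr4a2 at 0.79 (unadjusted p 0.34). Over all 18 tested immediate early genes, these 3 included, the median difference was 0.27 (0.11 without combined allograft replicate 2), with 12 above 0. Only these 3 had an unadjusted p below 0.05, against 2.98% of all genes on the higher side. Fos was at 0.40 and Egr1 at 0.07.

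The promoters of the 3 receptors are shown because they have a feature in common that the choice of genes did not use. Each window below is 250 bases from RefSeq (build GRCm38.p6), read 5′ to 3′ on the strand of the gene. Capitals mark TGACG and its reverse complement CGTCA, the core letters of the cyclic AMP response element.
Nr4a1, chr15:101266596-101266845, plus strand: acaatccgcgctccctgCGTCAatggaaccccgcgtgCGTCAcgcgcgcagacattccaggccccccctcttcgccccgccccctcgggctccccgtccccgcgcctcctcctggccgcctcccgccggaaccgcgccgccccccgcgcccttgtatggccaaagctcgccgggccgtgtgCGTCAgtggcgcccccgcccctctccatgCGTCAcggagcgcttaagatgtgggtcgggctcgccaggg
Nr4a2, chr2:57124004-57124253, minus strand: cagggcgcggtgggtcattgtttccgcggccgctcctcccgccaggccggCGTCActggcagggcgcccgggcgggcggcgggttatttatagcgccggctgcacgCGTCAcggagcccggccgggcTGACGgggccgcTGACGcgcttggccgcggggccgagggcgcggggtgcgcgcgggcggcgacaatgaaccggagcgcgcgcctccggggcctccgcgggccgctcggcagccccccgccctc
Nr4a3, chr4:48045055-48045304, plus strand: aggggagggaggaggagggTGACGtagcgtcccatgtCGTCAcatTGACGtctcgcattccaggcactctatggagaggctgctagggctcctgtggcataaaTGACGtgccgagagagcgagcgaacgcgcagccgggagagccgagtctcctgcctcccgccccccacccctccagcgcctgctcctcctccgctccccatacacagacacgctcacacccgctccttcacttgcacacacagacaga
Each window holds 4 copies on either strand, none overlapping another. At least 1 copy was found in 20.8% of the 32851 promoters of 300 bases in the RefSeq table, and 3 or more in 1.03%. Of the 14 immediate early genes matched in that table, 11 had at least 1 and 4 had 3 or more. A match is a description of the letters, and binding was not measured.

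Vegfa and Ptgs2 are made by activated macrophages and by hypoxic or inflamed tissue: vascular endothelial growth factor A drives vessel growth, and cyclooxygenase 2 makes prostaglandins. Vegfa stood at 369.9, 307, 176 and 199 CPM in control allografts and 103.7, 30.4, 98.1 and 151 in combined ones, where every value was below every control. Control primaries had a median of 76.3 CPM (58.2 to 194) and combined primaries 99.8 (53.1 to 398), with wide overlap. The difference of 2.32 ± 0.69 was fitted from 0.87 in primaries (adjusted p 0.115) and -1.45 in allografts (adjusted p 0.148), and in the second difference it was 1.31 (unadjusted p 0.0598). For Ptgs2 the combined allografts (166, 88.3, 249.1 and 566 CPM) straddled the controls (206, 371, 328 and 139.3), and the median of primaries was 43 CPM in controls (22.7 to 100.1) and 82.2 after treatment (33.5 to 486). Ptgs2 rose by 1.89 in primaries (adjusted p 0.0103), was at 0.03 in allografts, and its difference was 1.85 ± 0.89.

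Mmp8 encodes neutrophil collagenase, stored in neutrophil granules. It stood at 1.15, 2.68, 7.56 and 1.59 CPM in control allografts and 3.87, 9.93, 7.13 and 5.46 in combined ones. In primaries the values were 0.113, 0.454 and 1.23 CPM (lowest, median, highest) in controls and 0.848, 10.4 and 134.3 after treatment. Combined primaries therefore covered and passed the allograft range, from a control level below nearly all allografts. Mmp8 rose by 5.63 in primaries (adjusted p 2.63e-05) and was at 1.02 in allografts (adjusted p 0.681). The difference was 4.60 ± 1.34, and the second difference was 2.51 (unadjusted p 0.0561). F5, coagulation factor V, had 0.385 CPM as its median in control primaries (0.23 to 0.833) and 2.53 after treatment (0.219 to 14.8), against 4.26 to 8.98 in control allografts and 2.44 to 9.35 in combined ones. It rose by 3.30 in primaries (adjusted p 6.06e-05), with a difference of 3.05 ± 0.90.

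Angpt1 encodes angiopoietin 1, which stabilises vessels through the receptor Tek. It rose by 1.43 in primaries (adjusted p 0.000378), from a median of 9.71 CPM (4.98 to 17.4) to 26.1 (10.2 to 43.6), and was at -0.38 in allografts, where controls gave 26.7 to 35.8 CPM and combined tumours 18.7 to 34.7. Its difference was 1.81 ± 0.48, and the second difference was 0.53. Kif21a, a kinesin motor, had a difference of 1.76 and Rap1gap, which switches off the small GTPase Rap1, had 1.88. Both had the opposite sign in the second difference, at -0.14 and -0.70. Ipmk, an inositol polyphosphate kinase, was at 1.43, the kinase gene Pak3 at 1.93 and the small nuclear RNA Rn7sk at 2.24. Rn7sk is not polyadenylated and was counted in libraries prepared from mRNA.

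**Figure D2:**
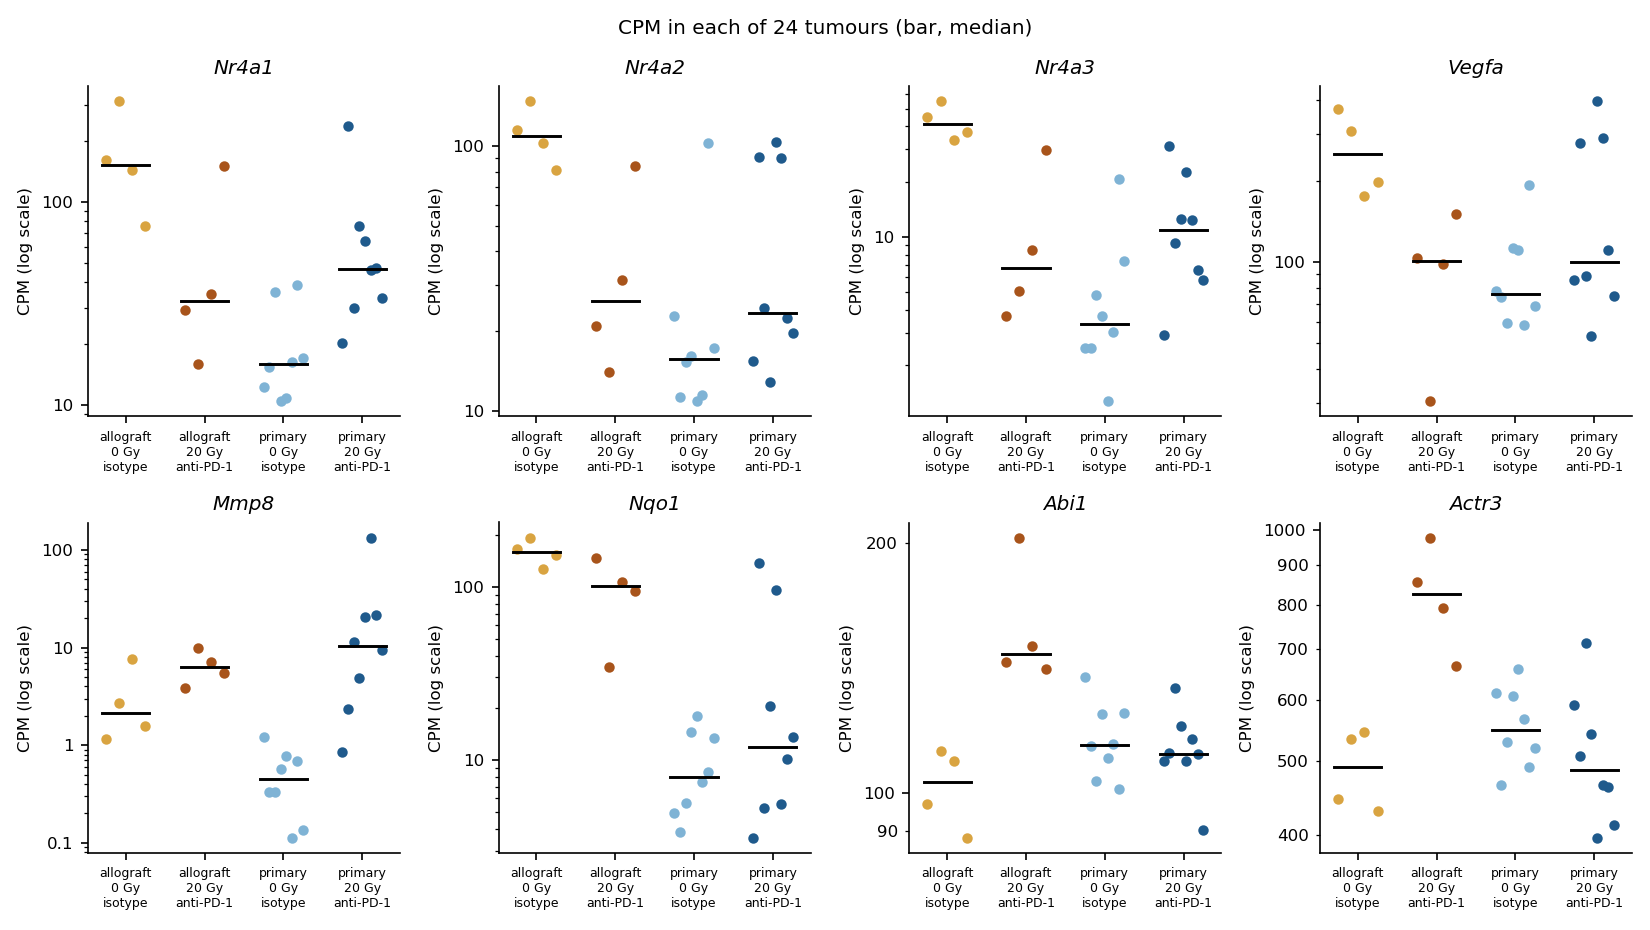
CPM per tumour on log axes for 8 named genes, in the 4 groups (control and combined allografts, n = 4 each; control and combined primaries, n = 8 each), with a bar at the median of each group. Nr4a1 and Vegfa start high in control allografts and low in control primaries, and Abi1 is highest in the 4 combined allografts.

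The plot of CPM per tumour for named genes sets the higher genes beside the lower ones. On the lower side, several genes build branched actin. Abi1 (ENSMUSG00000058835), a subunit of the WAVE complex that switches on Arp2/3, stood at 96.96, 112.3, 109.1 and 88.3 CPM in control allografts and 143.8, 203, 150.2 and 140.8 in combined ones. In primaries it was 101.02 to 137.9 CPM in controls (median 114.1) and 90.2 to 133.8 after treatment (median 111.2). All 4 combined allografts lay above the other 20 tumours. The difference was -0.69 ± 0.14 (unadjusted p 1.3e-05, adjusted p 0.25), DESeq2 gave an adjusted p of 0.00591, and the second difference was -0.38 (unadjusted p 0.0102). Abi1 rose by 0.65 in allografts (adjusted p 0.000945) and was at -0.04 in primaries (adjusted p 0.734). Leaving out combined allograft replicate 2, the highest, gave -0.54.

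Actr3, a core subunit of Arp2/3, rose by 0.75 in allografts (adjusted p 0.00612), from 446, 535, 545 and 430.3 CPM to 857, 979, 792 and 665, and was at -0.12 in primaries, whose medians were 548 and 486 CPM. Its difference was -0.87 ± 0.21, and the second difference was -0.28 (unadjusted p 0.183). Arpc2, another Arp2/3 subunit, stood at 252 to 366 CPM in control allografts and 377 to 408 in combined ones, while the primary medians were 355 and 326. A list of 23 genes of the Arp2/3, WAVE and WASP complexes was drawn up after these values were seen. In it 18 were below 0, and 7 had an unadjusted p below 0.05 (Abi1, Actr3, Arpc2, Arpc5, Cyfip1, Arpc1b and Actr2), against 3.43% of all genes on this side. Abi1, Actr3 and Arpc2 prompted the list and are counted in it; of the other 20 members, 15 were below 0 and 4 had an unadjusted p below 0.05, with a median of -0.31. The median of the whole list was -0.35, from 0.37 in allografts and -0.16 in primaries, against -0.00 over all genes. Summed over the list, the median was 3965 CPM in control allografts, 5315 in combined allografts (4765 to 5427), 4219 in control primaries (3942 to 5217) and 4034 in combined primaries (3442 to 4859). In the second difference the median was -0.17, with 17 below 0. Without combined allograft replicate 1 the count of 7 was 4.

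Evi2a, a membrane protein gene within an intron of Nf1, rose by 1.55 in allografts (adjusted p 0.00719), from 19.6 to 22.3 CPM in controls to 62.9, 73.3, 72 and 34.6, while the primary medians were 28 and 30.4. Its difference was -1.78 ± 0.44. Fam49a, whose product binds Rac1, rose by 1.65 in allografts (adjusted p 0.00699), from 12.8, 12.7, 27.6 and 8.54 CPM to 37.6, 57.5, 44.8 and 53.9, while the primary medians were 26.4 and 26.1. Its difference was -1.67 ± 0.46 and its second difference -1.18 (unadjusted p 0.0131). In both genes the treated and control allografts did not overlap and the primary groups did. Nadk, which makes NADP from NAD, rose by 0.51 in allografts (adjusted p 0.0186), with a difference of -0.64 and a second difference of -0.42 (unadjusted p 0.0147).

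A further set fell in primaries from a level above that of allografts. Pea15a, which holds the kinase ERK in the cytoplasm, fell by 0.43 (adjusted p 0.011), from a median of 234 CPM (196 to 319) to 177 (126.2 to 264), while allografts stood at 122.5 to 143.3 CPM in controls and 145 to 203 after treatment. Its difference was -0.89 ± 0.21 and its second difference -0.62 (unadjusted p 0.00555). Ltc4s, leukotriene C4 synthase, fell by 0.97 in primaries (adjusted p 0.0247), from a median of 14.1 CPM (10.3 to 30.4) to 7.4 (2.62 to 13.3), and allografts stood at 1.19 to 3.36 and 2.43 to 8.07. Its difference was -2.06 ± 0.55 and its second difference -1.5 (unadjusted p 0.00857). St3gal4, a sialyltransferase, fell by 0.62 (adjusted p 0.00132), with a difference of -0.95, and Exoc5, a subunit of the exocyst, fell by 0.48 (adjusted p 4.53e-05), with -0.53.

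Rian is a long noncoding RNA of the imprinted Dlk1-Dio3 domain and is expressed from the maternal copy. It fell by 1.5 in primaries (adjusted p 0.00391), from a median of 206 CPM (110.5 to 354) to 83.5 (20.9 to 119.9). Allografts stood at 3.94, 7.97, 10.4 and 12.6 CPM in controls and 4.94, 51.3, 10.5 and 17.7 after treatment, so the value of 1.27 there (adjusted p 0.19) leans on replicate 2. The difference was -2.78 ± 0.65, but the second difference was 0.21. Plagl1, an imprinted zinc finger gene, was at -3.06 ± 0.86. A list of 27 imprinted genes drawn up after this was seen had 21 below 0, a median of -0.35 and 5 with an unadjusted p below 0.05 (Rian, Plagl1, Rtl1, Mirg and Meg3, or 3 of 25 without Rian and Plagl1, which prompted it, against 3.43% of all genes), and its median in the second difference was -0.47, with 19 below 0. Without combined allograft replicate 2 the median was -0.12, with 15 below 0 and 3 with an unadjusted p below 0.05. Rian, Rtl1, Mirg and Meg3 lie in the same domain and may share transcripts, so they are not separate observations.

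Skint3 was called by DESeq2 alone, and its counts do not carry a fold change. All 4 control allografts were at 0 reads, as were 3 of the 4 combined allografts, and the remaining one had 73. The 8 control primaries held 81 reads together and the 8 combined primaries 178. edgeR gave -6.25 ± 3.28 and DESeq2 -20.5, neither of which is a bound.

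**Figure D3:**
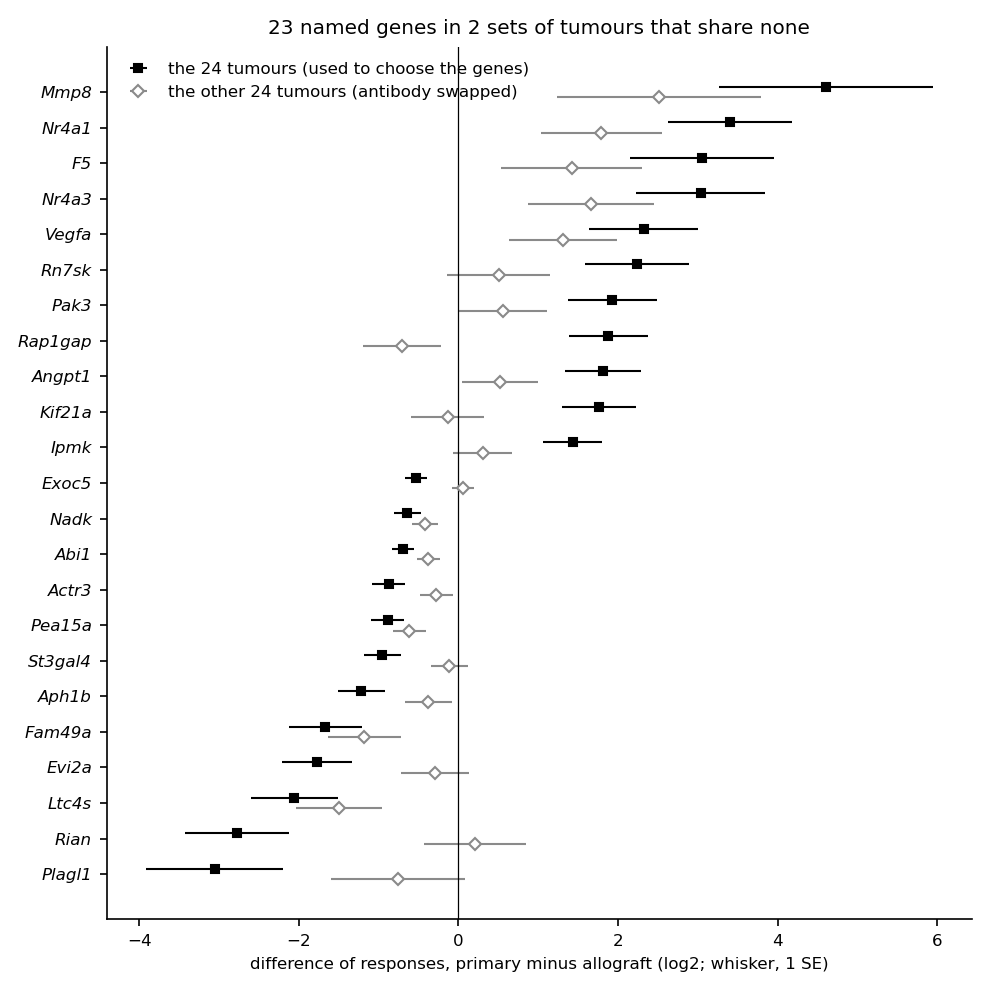
Difference of responses (log2, primary minus allograft, x axis) for 23 of the 24 genes of smallest p, with bars of 1 SE, beside the second difference from tumours that this comparison does not use. Both values lie on the same side of 0 for 19 of the 23 genes.

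The plot of differences for single genes shows where the other tumours had the same sign and where, as for Rap1gap, they did not. Gene groups are described next by 38 lists of 8 to 20 genes, each summarised by the median difference of its tested members, beside -0.00 over all genes, of which 9603 of 19327 (49.7%) were above 0. No list has a test here, and members of a list are not independent of each other. Counts of members that rose or fell are of genes called at an adjusted p below 0.05. A member not called may still have moved. Over all genes, 11.4% were called upward and 7.44% downward in primaries, and 4.12% and 0.279% in allografts. Those with an unadjusted p below 0.05 for the difference were 2.98% on the higher side and 3.43% on the lower side.

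**Figure D4:**
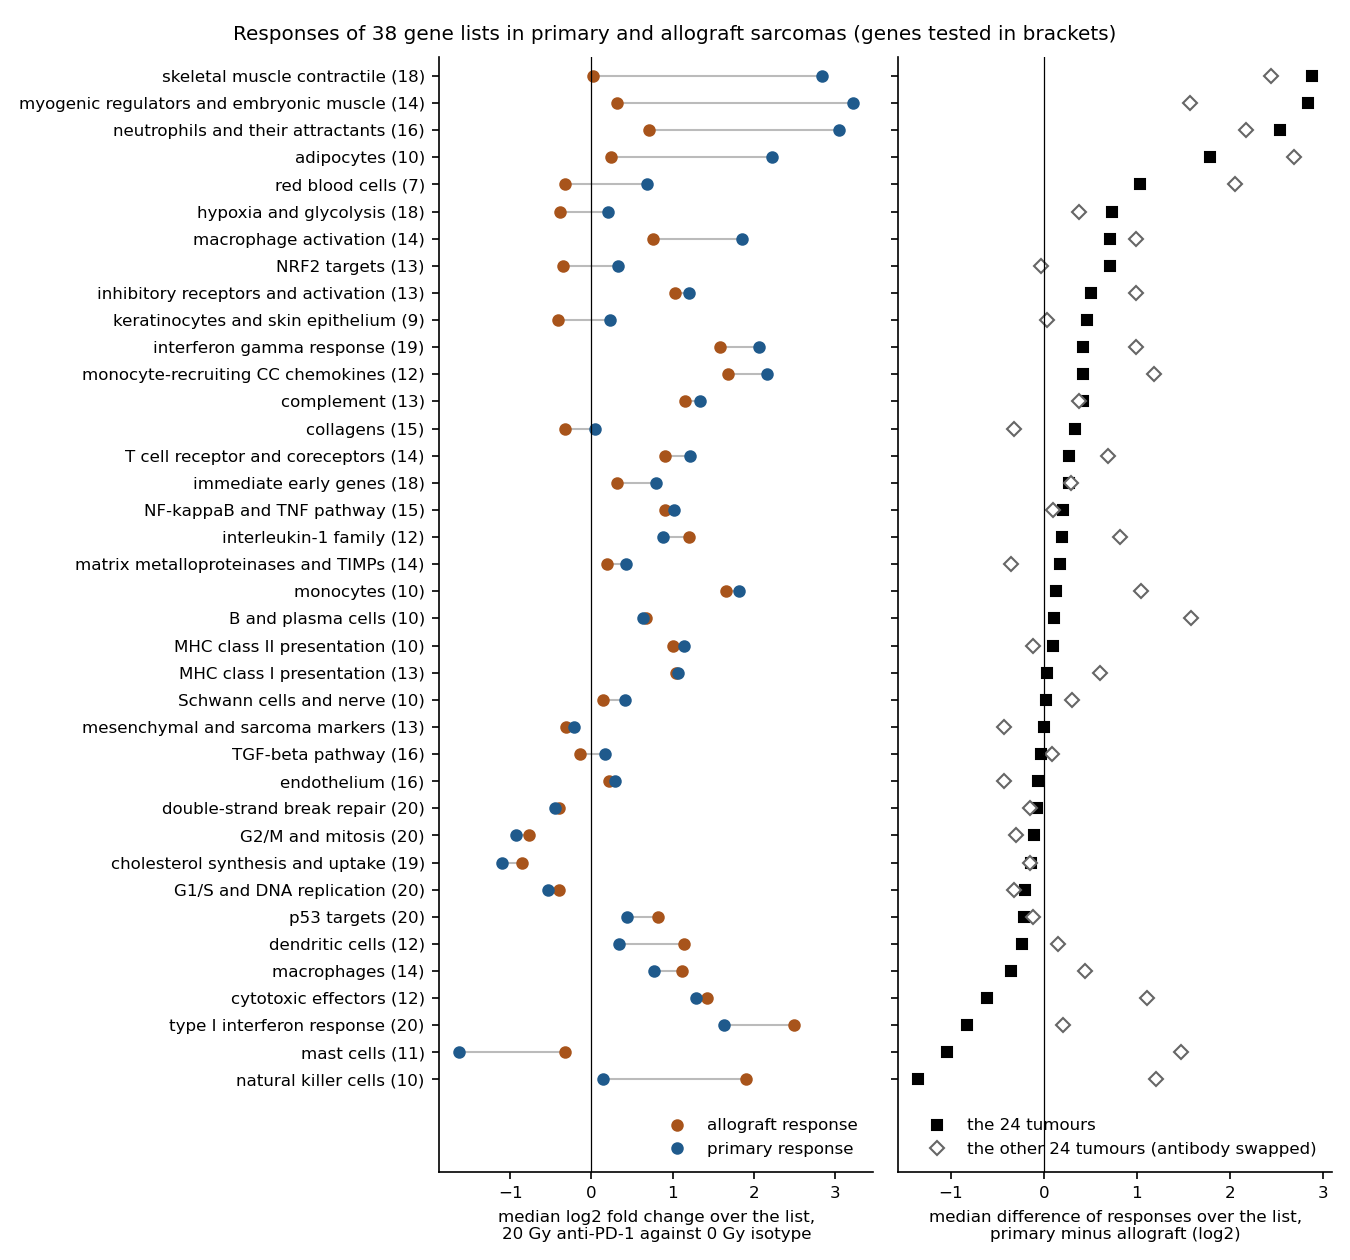
Left, median log2 fold change of each of 38 gene lists to 20 Gy with anti-PD-1 in allografts and in primaries; right, median difference of responses (log2, primary minus allograft; squares) beside the second difference from the other 24 tumours (diamonds). Neutrophil genes are high in both differences (2.54 and 2.17) and natural killer genes change sign (-1.35 and 1.21).

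The plot of list medians places neutrophil and muscle genes at the high end and natural killer genes at the low end. Neutrophils are short-lived granulocytes drawn by CXC chemokines, and the list joined their receptors, granule proteins and attractants. All 16 members had a difference above 0, with a median of 2.54. On the higher side 4 had an unadjusted p below 0.05 (Mmp8, Retnlg, Camp and Ly6g), against 2.98% of all genes. In primaries 11 of 16 were called upward, against 11.4% of all genes, with a median response of 3.05. In allografts none was called, against 4.12% of all genes, with a median of 0.71. Among the receptors, Csf3r, for granulocyte colony stimulating factor, rose by 2.44 in primaries (adjusted p 4.62e-05), from a median of 18.7 CPM (11.3 to 42.5) to 122.96 (25.3 to 179), and allografts went from 37.1, 46.8, 67.9 and 43.8 CPM to 81.9, 212, 169 and 144.4. Although these allograft values did not overlap, its fold there was 1.63 with an adjusted p of 0.0844, and its difference was 0.80 ± 0.66. Cxcr2, the receptor for the CXC attractants, rose by 3.61 in primaries (adjusted p 0.00957), from a median of 1.07 CPM (0.113 to 9.51) to 19.9 (1.7 to 73.9), against 4.01 to 10.9 and 5.93 to 41.3 CPM in allografts.

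Genes of granule and cytosolic proteins of neutrophils spread widely among combined primaries. Retnlg rose by 4.05 in primaries (adjusted p 0.00392), from a median of 0.478 CPM (0.207 to 1.39) to 4.19 (0.568 to 49.8), and allografts gave 1.48 to 7.74 and 1.33 to 14.6 CPM. Its difference was 3.63 ± 1.59 and its second difference 3.96 (unadjusted p 0.0182). S100a8 and S100a9, which form the calcium-binding complex calprotectin, had medians of 4.01 and 5.72 CPM in control primaries and 22.1 and 38.7 after treatment, with highest values of 199.9 and 315. Their folds of 3.04 and 3.12 in primaries had adjusted p of 0.0534 and 0.0566 and did not pass the test. Camp, the antimicrobial peptide cathelicidin, had a difference of 3.99 with no called response in either kind.

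Of the attractants, Cxcl3 rose by 4.13 in primaries (adjusted p 0.00205), from a median of 0.587 CPM to 9.22, with a highest value of 188. Allografts gave 0.563 to 1.6 CPM in controls and 1.69 to 3.16 in combined tumours. Cxcl1, Cxcl2 and Cxcl5 also rose in primaries, by 1.98, 3.35 and 3.06, and their differences were 1.18 ± 1.10, 1.74 ± 1.30 and 2.44 ± 1.60. The mean log2 CPM of the whole list was 2.29 ± 0.61 (SD, n = 4) in control allografts and 2.78 ± 0.40 (n = 4) in combined ones. In control primaries it was 0.32 ± 1.27 (SD, n = 8), and in combined primaries 2.89 ± 1.62 (n = 8). The primaries thus started 1.97 below the allografts and ended 0.11 above them. In the other tumours the same gap was -1.97 at 0 Gy with anti-PD-1 and 0.14 at 20 Gy with isotype. The difference of the list means was 2.07 ± 0.81 (SE), and 2.11 ± 1.15 in the other tumours. The median of the list stayed between 1.77, without combined primary replicate 6, and 3.09, without control primary replicate 7, and it was 2.58 with muscle as a covariate and 2.61 without the allograft that held liver transcripts.

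**Figure D5:**
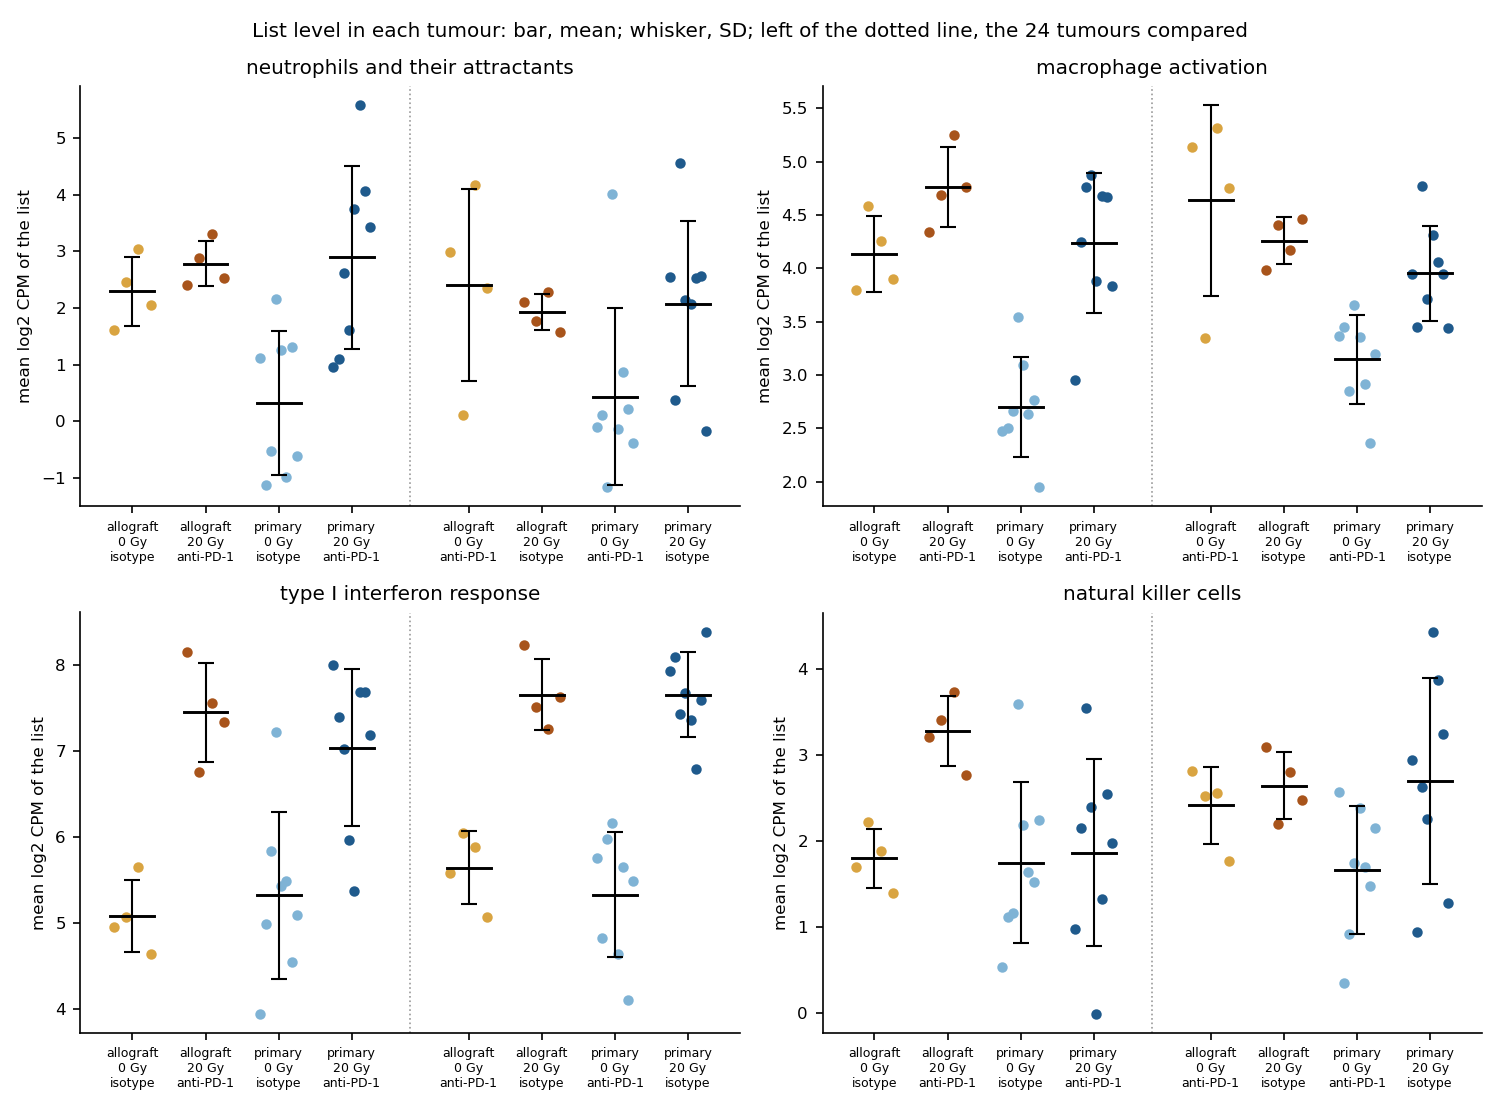
Mean log2 CPM of the members of 4 gene lists in each tumour (points), by group (n = 4 allografts or 8 primaries), with a bar at the group mean and a whisker of 1 SD; the 24 tumours compared lie left of the dotted line and the other 24 right of it. Neutrophil genes start lower in primaries at 0 Gy and reach the allograft level at 20 Gy on both sides of the line.

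The plot of list means per tumour shows this for neutrophil genes and, with less spread, for macrophage activation. Macrophages are tissue phagocytes, and the list held genes of several activation states. Of 14 members, 11 were above 0, with a median of 0.72. On the higher side 3 had an unadjusted p below 0.05, Vegfa and Ptgs2 among them, against 2.98% of all genes. In primaries 9 were called upward, against 11.4% of all genes, with a median response of 1.86. In allografts 3 were called upward, against 4.12% of all genes, with a median of 0.76. The mean log2 CPM was 4.13 ± 0.36 in control allografts, 4.76 ± 0.37 in combined ones, 2.70 ± 0.47 in control primaries and 4.24 ± 0.66 in combined primaries. The gap between kinds went from -1.43 to -0.52, and in the other tumours from -1.49 to -0.30. The difference of means was 0.91 ± 0.38, and 1.19 ± 0.51 in the other tumours. The median was 0.45 without control allograft replicate 3. General macrophage markers had a median difference of -0.35 (-0.46 without combined primary replicate 4 to -0.16 without combined allograft replicate 2). Monocyte markers had 0.13, from -0.06 without control allograft replicate 3 to 0.43 without control primary replicate 4.

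Chemokines of the CC family recruit monocytes and eosinophils. Among 12 genes of this list, 11 were called upward in primaries and 4 in allografts, against 11.4% and 4.12% of all genes. Their median responses were 2.16 and 1.67. The median difference was 0.42 with 8 above 0 (0.24 without combined allograft replicate 4 to 0.79 without control primary replicate 4). Ccl11, or eotaxin, rose by 4.0 in primaries (adjusted p 3.68e-05), from a median of 4.31 CPM (1.43 to 9.98) to 48.3 (0.469 to 253), and allografts gave 9.16 to 25.6 and 25.1 to 61 CPM. Its difference was 2.81. Ccl6 rose by 3.58 (adjusted p 9.42e-06), from a median of 14.9 to 132.6 CPM, with a difference of 1.88 and a second difference of 3.10 (unadjusted p 0.000569). Ccl12 went the other way, with a difference of -1.43. All 12 were above 0 in the second difference, where the median was 1.18.

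Cytokines of the interleukin 1 and NF-kappaB pathways drive acute inflammation. Il1rn, the natural antagonist of the interleukin 1 receptor, rose in both kinds, by 3.28 in primaries and 1.95 in allografts. It went from a median of 7.06 CPM (4.6 to 17.5) to 76.7 (41 to 154) in primaries, and from 28.7, 37.3, 60.1 and 24.9 CPM to 151, 96.1, 168 and 167 in allografts, with no overlap between control and combined tumours in either kind. Its difference was 1.33, and 1.62 in the second (unadjusted p 0.00482). Il6 rose by 3.33 and Lif, a cytokine of the same family, by 2.52 in primaries (adjusted p 0.00045 for Lif). Their differences were 2.34 and 2.30. The whole interleukin 1 list of 12 genes had a median difference of 0.20, with 9 above 0 and 1, Il1rn, with an unadjusted p below 0.05. That median ran from 0.12 without control primary replicate 1 to 0.49 without control primary replicate 4, and was 0.45 with voom and 0.47 with Xist as a covariate. The 15 genes of the NF-kappaB list had a median difference of 0.21, with 12 rising in primaries and 5 in allografts, and 0.09 without control allograft replicate 3.

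Hypoxia and glycolysis genes had small differences that all pointed one way. All 18 were above 0, with a median of 0.73, while 4 rose in primaries (median 0.20) and none was called in allografts (median -0.39). Hk2, which traps glucose in the cell, rose by 1.38 in primaries (adjusted p 0.000724), from a median of 48 CPM (24.5 to 74.7) to 117.2 (50.7 to 214). Allografts gave 98.9, 93, 161 and 59.2 CPM and then 82.4, 105.99, 97.02 and 163, which overlap. Its difference was 1.25 ± 0.49. Gapdh had a difference of 0.96: combined allografts at 1359 to 1725 CPM all lay below the controls at 1832 to 2745, and the median of primaries was 1437 in controls and 2048 after treatment. The difference of list means was 0.69 ± 0.31, and 0.41 ± 0.40 in the other tumours, where 16 of 18 genes were above 0. Gapdh is often used as a reference gene in quantitative PCR.

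NRF2 switches on genes of glutathione and thioredoxin metabolism. Of 13 tested targets 11 were above 0, with a median of 0.71. On the higher side 5 had an unadjusted p below 0.05, against 2.98% of all genes. Gclc, which limits glutathione synthesis, rose by 0.87 in primaries (adjusted p 0.0202), from a median of 33.4 CPM (22.6 to 45.3) to 42.6 (21.5 to 159.6), and allografts gave 106.96, 98.9, 92.8 and 78.6 CPM and then 70.6, 29.8, 51.1 and 88.1. Its difference was 1.53 ± 0.47. Nqo1, a quinone reductase, rose by 1.93 in primaries (adjusted p 0.00521), with a difference of 2.67 ± 0.85, but the fold is carried by few tumours: the median was 7.98 CPM in controls (3.86 to 18.0) and 11.9 after treatment (3.56 to 137.5). Nqo1 stood at 126.9 to 193 CPM in control allografts, so the kinds differed by -4.07 at 0 Gy (adjusted p 1.07e-05). The second difference was -0.03 for Nqo1 and -0.03 for the list, with 6 of 13 above 0.

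Type I interferons switch on antiviral genes in almost every cell. This list rose almost whole in both kinds: 19 of 20 genes were called upward in primaries (median 1.63) and 20 of 20 in allografts (median 2.50). The difference was below 0 for 19 of the 20, with a median of -0.82, yet none had an unadjusted p below 0.05. Without control primary replicate 4 the median was -0.39. Irf7, the transcription factor that amplifies interferon production, rose by 1.90 in primaries and 2.99 in allografts. It went from 106.2, 158, 216 and 108.7 CPM to 1668, 746, 1370.2 and 898 in allografts, without overlap, and from a median of 132.2 CPM (50.5 to 739) to 823 (179.7 to 1124) in primaries, with overlap. Its difference was -1.09 ± 0.65. Ifit3, which binds viral RNA complexes, rose by 1.63 and 2.89, with -1.26 ± 0.75, and control primaries already reached 382 CPM at their highest, against 71.5 in control allografts. In the other tumours the list median was 0.21, with 15 of 20 above 0, so the sign did not carry over.

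The promoters of Isg15 and Ifit1 are shown as examples of this group. Isg15, a ubiquitin-like protein, stood at 52.4 to 71.8 CPM in control allografts and 177 to 832 in combined ones, and had medians of 69.2 and 236 in primaries. Each window is 120 bases from RefSeq (GRCm38.p6) on the strand of the gene. Capitals mark GAAA followed after any 2 bases by a further GAAA, or the reverse complement, the core of the interferon-stimulated response element.
Isg15, chr4:156200819-156200938, minus strand: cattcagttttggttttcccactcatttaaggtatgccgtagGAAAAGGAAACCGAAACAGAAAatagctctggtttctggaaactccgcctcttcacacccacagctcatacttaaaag
Ifit1, chr19:34640769-34640888, plus strand: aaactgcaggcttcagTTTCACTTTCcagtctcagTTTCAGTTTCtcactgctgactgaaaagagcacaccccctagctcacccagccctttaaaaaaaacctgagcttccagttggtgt
The 3 matches in Isg15 overlap one another and the 2 in Ifit1 are separate. On either strand the letters were found in 3.44% of all promoters of 300 bases, in 8 of 14 matched genes of the type I list and in 10 of 13 of the interferon gamma list. Binding was not measured.

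Interferon gamma comes mainly from T and natural killer cells. All 19 genes of this list rose in primaries (median 2.06) and 10 in allografts (median 1.58), and the median difference was 0.43 with 15 above 0. It was 0.025 without control allograft replicate 3 and 0.78 without control primary replicate 4. Cxcl9, a chemokine for activated T cells, rose by 3.10 in primaries, from a median of 34.5 CPM (15.7 to 132.3) to 419 (24.4 to 1353), whereas allografts went from 405, 408, 694 and 122.95 CPM to 1039, 451, 1140.1 and 1287. The lowest combined primary stayed within the control range. Its difference was 1.83. Genes of MHC class I presentation had median responses of 1.06 in primaries, where 10 of 13 rose, and 1.04 in allografts, where 1 did. Their median difference of 0.04 had no stable sign (-0.21 without control allograft replicate 3 to 0.34 without control primary replicate 4), and all 13 were above 0 in the second difference, with a median of 0.60.

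Natural killer cells kill without prior sensitisation, and their receptors include the Ly49 family encoded by Klra genes. Of 10 markers 9 were below 0, with a median of -1.35. On the lower side 3 had an unadjusted p below 0.05 (Ncr1, Klrb1c and Klra8), against 3.43% of all genes. The median response was 1.91 in allografts, where 1 gene was called, and 0.15 in primaries, where none was. Ncr1, an activating receptor, stood at 1.34, 2.04, 2.05 and 1.84 CPM in control allografts and 7.3, 8.02, 8.3 and 4.36 in combined ones, without overlap. In primaries the median was 2.94 CPM (1.31 to 15.3) in controls and 4.01 (0.43 to 11.1) after treatment. Its fold of 1.94 in allografts had an adjusted p of 0.0925, and its difference was -1.91 ± 0.80. Klrb1c, or NK1.1, had a difference of -2.28, from less than 1 CPM in all control allografts to 0.861 to 2.71 in combined ones. Klra8 had -2.90, at 0.0225 to 0.16 and 0.183 to 0.609 CPM, which at this depth are few reads. Reads were aligned to a reference build. Whether the strain of these hosts carries the same Klrb1c and Klra genes as that build was not tested. Counts given under these names may therefore come in part from related genes.

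A list of 25 Ly49 and NKG2 receptor genes was drawn up after these values were seen. Of the 24 tested, 21 were below 0 and 9 had an unadjusted p below 0.05, against 3.43% of all genes on this side, with a median of -1.40. Without Klra8 and Klrb1c, already described, these were 19 and 7 of 22, with a median of -1.16. That count of 9 was 2 without control allograft replicate 1 or 4 or without control primary replicate 4, and 4 with Xist or the identifier digit as a covariate, while the median stayed between -1.70 and -1.04 with single tumours left out. The Klra genes share long stretches of sequence, so reads can be split between them and they are uncertain as single genes. Whether the receptor genes of the host strain match those of the reference build was not tested either. The whole pattern did not recur in the other tumours, where 9 of 10 natural killer markers were above 0 (median 1.21), as were 19 of the 24 receptors (median 1.19). Leaving out any 1 tumour kept the natural killer median between -1.67 and -0.91, the latter without control primary replicate 4, which was high for cytotoxic genes.

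Cytotoxic effectors, the granzymes, perforin and related genes, had a median difference of -0.61, with 4 of 12 above 0 and none with an unadjusted p below 0.05. Gzmb, granzyme B, rose by 1.60 in primaries (adjusted p 0.0339) and was at 2.52 in allografts (adjusted p 0.0574). It stood at 31.1, 50.8, 78.8 and 15.2 CPM in control allografts and 246, 146, 393 and 224 in combined ones, while control primaries had a median of 8.93 (4.81 to 115.6) and combined primaries 61.6 (4.91 to 146). The list median was -0.85 without control allograft replicate 2 and 0.38 without control primary replicate 4, so 1 tumour can set its sign. In the other tumours all 12 were above 0 (median 1.11). For T cell receptor genes no member was called in either kind. Their median difference was 0.28, but -0.61 without combined primary replicate 4, from -0.67 to 0.34 over the other settings, and -0.55 ± 0.80 as a difference of list means. Lag3, an inhibitory receptor of activated T cells, rose by 1.89 in primaries, from a median of 5.71 CPM (2.44 to 11) to 22 (9.77 to 32.9), with a difference of 1.13 and a second difference of 1.27 (unadjusted p 0.0223). Its list of 13 inhibitory receptors and activation genes had a median difference of 0.51 with 9 above 0, from -0.04 without combined primary replicate 4 to 0.76 without control primary replicate 4, and -0.07 ± 0.57 as a difference of list means. Mast cell genes had a median of -1.04 with 1 of 11 above 0, and 1.48 with 10 above 0 in the other tumours. Without combined allograft replicate 2 the first of these was -0.47.

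The p53 pathway answers DNA damage with cell cycle arrest and apoptosis, and the tumour cells of the primaries carry a deletion of p53. Whether the allograft line keeps or lacks p53 was not tested. The values below therefore cannot be read as a comparison of tumours with and without p53. Of 20 targets 11 rose in primaries and 6 in allografts, with medians of 0.44 and 0.82, and the median difference was -0.21 with 7 above 0. Without combined allograft replicate 2 it was -0.03. Cdkn1a, which encodes the arrest protein p21, rose by 2.39 in primaries (adjusted p 5.5e-09) and by 1.98 in allografts (adjusted p 0.000575), with a difference of 0.40 ± 0.39. Gdf15, a stress cytokine, rose by 1.46 in primaries (adjusted p 0.00496) and by 3.35 in allografts (adjusted p 0.000818). It stood at 0.191, 0.252, 0.18 and 0.0897 CPM in control allografts and 1.64, 2.71, 1.73 and 1.31 in combined ones, and its median in primaries was 1.85 CPM (0.696 to 4.72) and then 5.74 (1.92 to 8.84). Its difference was -1.89 ± 0.66, with -1.40 in the second (unadjusted p 0.0389). Bbc3, the apoptosis gene also called Puma, rose by 1.14 in allografts (adjusted p 0.00614), from 7.35 to 8.11 CPM to 11.1 to 23.9, and primaries had medians of 10.6 and 14.5. Its difference was -0.73, and that of Sesn1 was -1.10.

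Genes of cell division and sterol synthesis were fitted downward in both kinds. Of 20 genes of G2/M and mitosis 18 fell in primaries (median -0.92), and in allografts the median was -0.77 with none called, and the median difference was -0.10 (-0.30 to 0.07 with single tumours left out). All 19 genes of cholesterol synthesis and uptake fell in primaries (median -1.10) and 8 fell in allografts (median -0.86), with a median difference of -0.14 (-0.38 without combined primary replicate 5 to -0.04 without control primary replicate 1). Mki67, a marker of dividing cells, fell by 0.92 in primaries (adjusted p 0.0092) and was at -0.85 in allografts (adjusted p 0.197). Its difference was -0.07 ± 0.43. Collagens had a median difference of 0.33, from 0.058 without combined primary replicate 8 to 0.86 without combined allograft replicate 4. Mesenchymal markers had 0.00 (-0.15 without combined allograft replicate 2 to 0.18 without combined allograft replicate 1) and endothelial markers -0.06 (-0.15 without combined primary replicate 4 to 0.14 without control primary replicate 7). Mmp13, a collagenase of stromal cells, rose by 2.62 in allografts (adjusted p 0.0186), from 16.9 to 44.6 CPM to 508, 40.2, 126.3 and 104.9, against medians of 11.6 and 17.6 in primaries. Its difference was -1.71, with -2.0 in the second (unadjusted p 0.018). The 14 genes of its list, matrix metalloproteinases and their inhibitors, had a median difference of 0.18 with 8 above 0 and 1 on each side with an unadjusted p below 0.05. That median ran from -0.14 without control allograft replicate 1 to 0.38 without combined allograft replicate 1.

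Skeletal muscle genes had the highest list median, 2.89, with 15 of 18 above 0, but this value depended on how tumours were averaged. The fit on counts gives the tumours with most muscle more weight than a mean of logs does. Whether this accounts for the dependence was not tested. The mean log2 CPM of the list was 6.39 ± 3.09 in control allografts, 7.63 ± 1.25 in combined ones, 4.80 ± 2.25 in control primaries and 5.40 ± 4.0 in combined primaries, which gives a difference of -0.63 ± 2.32. None of the 18 had an unadjusted p below 0.05. The myogenic list, with the muscle stem cell and fusion genes Pax7, Myod1 and Mymx, had a median of 2.85, with 13 of 14 above 0. On the higher side 4 had an unadjusted p below 0.05, against 2.98% of all genes. In primaries 8 of its genes were called upward, against 11.4% of all genes. The difference of means of the myogenic list was 0.41 ± 1.57. Adipocyte genes (median 1.79) and red blood cell genes (median 1.04) likewise varied between tumours of a group: without control allograft replicate 4 the adipocyte median was -0.19, and without control allograft replicate 3 the red cell median was 0.0094. With the muscle level as a covariate edgeR still called no gene for the difference, and the smallest adjusted p was 0.342.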

How the data were processed

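Gene-level read counts of 48 tumours were used as the authors deposited them: whole numbers per Ensembl gene, not normalized. Libraries were made with a KAPA stranded mRNA kit from RNA with an integrity number above 7, per the labels' protocols. Trimmomatic 0.36, STAR, HTSeq and the mm10 build are named in the submitters' processing notes. The annotation and strand setting are not given in the sources used here, so overlapping and antisense genes may share reads. Of 36854 identifiers 36796 were matched to a symbol, and 551 of 552 list symbols were found (3 by an older name), of which 540 were tested.

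Counts were fitted with edgeR 4.0.16 (R 4.3.3): TMM scaling, the default filter on low counts by group, 1 coefficient for each of 8 groups over all 48 tumours, quasi-likelihood F tests and Benjamini-Hochberg adjustment over 19327 genes, with a threshold of 0.05. The 24 other tumours add to the estimate of spread and give the second difference. Standard errors are the log2 fold change divided by the square root of F. List means are means of log2 CPM with a prior count of 2. DESeq2 1.42.0 and voom in limma 3.58.1 served as alternatives, with other scaling, filter, sample and covariate choices and each of the 24 tumours left out in turn. The scripts were tested on simulated data. Figures were drawn with matplotlib 3.10.9.

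Named genes were those called by either tool, the 12 of smallest p in each direction with at least 5 CPM in some group and no clone name, and in each list up to 3 members of smallest p, or else the 2 most abundant. Further list members, and the genes of the promoters shown, were chosen after their values were seen. The comparison, its lists and its rule for named genes were chosen with earlier results of these data known. Replicate numbers follow the order of deposit and pair nothing. The labels describe separate tumours, and no pair of libraries agreed within sampling noise (chi-square over degrees of freedom 100 to 995 within groups), so all 24 were kept. Of the genes that the rule names, 1 is not reported here, though counts and list medians include it.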

Additional observations from a re-analysis of the deposited data

Results flagged for a closer look

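DESeq2, but not edgeR, gave an adjusted p below 0.05 to the difference of responses of Abi1 at -0.66, Nr4a1 at 3.41 and Skint3 at -20.5. The value of Skint3 rests on 73 reads in 1 of 8 allografts and has no meaning as a fold.

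Over 252 sets of tumours, each of them 1 gene or list in 1 group, 10 held a tumour far from the rest, and chance gives about 1 in 20. In mean log2 CPM, red blood cell genes were high in control allograft replicate 3 (5.27, others 1.58 to 2.18). Cytotoxic genes were high in combined allograft replicate 3 (4.67, others 4.05 to 4.07) and in control primary replicate 4 (3.93, others 0.24 to 1.92), and low in combined primary replicate 5 (0.23, others 2.22 to 4.02). Cholesterol genes were high in that last tumour (5.01, others 3.78 to 4.16).

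Among single genes, in log2 CPM, St3gal4 was low in combined allograft replicate 4 (6.21, others 6.42 to 6.45) and Exoc5 high in replicate 2 (6.01, others 5.66 to 5.69). In replicate 1 of the same group F5 was low (1.32, others 3.00 to 3.23) and Skint3 high (0.96, others -4.39). Ltc4s was high in control primary replicate 5 (4.93, others 3.36 to 4.04).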

How the results depend on the processing

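No paired analysis was possible because the labels describe separate tumours and pair none of them. The 24 named genes of smallest p kept their sign under every alternative run, and 21 of 38 list medians did. The 24 genes were chosen by their p in these same tumours, which in itself favours a kept sign. The median over all genes stayed between -0.04 and 0.06. For the difference of responses, the number of genes called was 4 with DESeq2 and 0 to 1 with single tumours left out. At an unadjusted p below 0.05 it was 2112 with no filter on low counts, 866 with only the 24 tumours and 993 to 1482 with single tumours left out. Genes called for the combined treatment in primaries numbered 1794 with voom, 2349 with only the 24 tumours and 2536 to 4406 with single tumours left out. In allografts these counts were 1575, 374 and 270 to 1008, and they were 340, 381 and 270 without control replicates 1, 2 and 4 and 519 and 539 without combined replicates 2 and 3. Between the kinds at 0 Gy (1993 genes in edgeR) they were 3122 with voom, 1180 with the 24 tumours, 873 with the identifier digit as a covariate and 1016 to 2262. Between the treated kinds (1309 genes) they were 2071 with DESeq2, 795 with voom, 782 with no filter, 508 with the 24 tumours, 736 with the digit and 155 (without combined allograft replicate 3) to 2356. The second difference gave 12 with DESeq2. Its own tumours were not left out in turn. With voom the list medians were 0.46 for the TGF-beta pathway, -0.46 for skeletal muscle, 0.46 for myogenic genes and -0.75 for adipocytes. With single tumours left out they ran from -0.18 to 0.43 for TGF-beta, from -0.19 to 3.11 for adipocytes and from 0.0094 to 1.72 for red blood cells. The cause of these shifts was not tested. The 4 allografts a group limit the precision of every difference, 1 cell line stands behind all allografts, dose and antibody change together, and genes below 1 CPM rest on few reads.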

Other observations

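Gene families by symbol stem, with at least 10 tested members, had their highest median differences in Ighv (46 genes, median 1.94, 44 above 0), Asb (16 genes, 1.57) and Igkv (73 genes, 1.55). The first and the last are immunoglobulin variable segments, mostly low: the median over members of a gene's highest group mean was 0.52 CPM for Ighv and 1.62 for Igkv. The list of 10 tested B and plasma cell genes had a median difference of 0.12 with 5 above 0, from -0.57 without control allograft replicate 3 to 0.40 without control allograft replicate 1, and -0.64 ± 0.60 as a difference of list means. Asb genes are mostly expressed in muscle. In the second difference the medians of Ighv, Asb and Igkv were 0.49, 0.16 and 1.21. The lowest medians were in Klra (12 genes, -2.07), Ces (10 genes, -1.16) and Ms (13 genes, -0.68, mostly membrane-spanning Ms4a genes). Ces genes encode carboxylesterases, several of them of the liver, and combined allograft replicate 3 held liver transcripts. Whether that tumour sets the Ces median was not tested. In the second difference the medians of Klra, Ces and Ms were 0.66, 0.03 and 1.20.

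Replication-dependent histone genes (stem Hist, 60 genes) had 52 above 0, with a median of 0.68 and 7 with an unadjusted p below 0.05 on the higher side, where 2.98% of all genes lay, and the median was 0.05 in the second difference. The median over members of a gene's highest group mean was 0.89 CPM, and their messages lack a poly(A) tail.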
